A study of Mus musculus with 7 samples.

Results

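Argonaute crosslinks that lay beside a seed match of the microRNA miR-181 were examined in newborn mouse retina. They were chosen by sequence: a position of the deposited crosslink table entered when it lay in a same-strand exon and the 20 nt on either side of it, along the spliced transcript, held a match to bases 2 to 8 of miR-181a-5p (a 7mer-m8 match). Of 14054 positions in the table, 10989 lay in exons with transcript sequence, and 385 of these held such a match (3.5%, exact 95% interval 3.17 to 3.86). They stood in 335 of the 4357 genes with an exonic crosslink, which is 7.69% of those genes. Of the 335 genes, 296 held 1 miR-181 crosslink and 34 held 2.

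The study crosslinked RNA to protein by PAR-CLIP in CD-1 retinas taken at postnatal day 0. The explants were cultured for 24 h with 0.1 mM 4-thiouridine and 20% horse serum, then irradiated at 365 nm with about 300 mJ/cm2, and each library pooled 6 retinas. In 5 libraries, Argonaute was precipitated with antibody 2A8, and 2 control libraries were made with IgG from retinas treated alike. The crosslink table pools the Argonaute libraries and gives each position a score, the number of libraries that contained it, from 2 to 5. Read depth is unknown, and neither values per library nor the IgG libraries were analysed here. Whole retina holds all retinal cell types, so the cell of origin of a crosslink cannot be told apart. Intervals on shares are exact Clopper-Pearson intervals at 95% and cover counting error only, since positions within a gene or a library are not replicates.

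Argonaute carries a microRNA as a guide and binds messenger RNAs that pair with its seed, the bases near its 5′ end, which usually leads to less protein and faster decay of the message. In PAR-CLIP, 4-thiouridine takes the place of some uridines in new RNA, and a uridine that touches the protein can be joined to it by light and then read as a changed base. The miR-181 family is abundant in the brain and in the inner retina, where it is expressed in amacrine and ganglion cells, and in fish it has been linked to the growth of their axons. In human cells, repeated miR-181 matches in the coding sequence of zinc finger genes are a known exception to the rule that most sites lie in 3′ UTRs.

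The 4 mature 5p microRNAs of the family share the seed, shown in capitals with sequences from RefSeq on build GRCm38.p6, and differ in the bases after it, so a crosslink cannot be given to 1 of them by its seed match.
miR-181a-5p: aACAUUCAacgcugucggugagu
miR-181b-5p: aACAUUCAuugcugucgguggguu
miR-181c-5p: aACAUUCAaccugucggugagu
miR-181d-5p: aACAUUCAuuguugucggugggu
The matching site in the message reads TGAATGT, and an 8mer is the same site followed by A, TGAATGTA.

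These 5 sites are the 8mers in 3′ UTRs that were crosslinked in all 5 Argonaute libraries. Each stretch is 30 nt of the message, 5′ to 3′, with the crosslinked t as base 13 and the match in capitals.
Mybl1: ctgagaattttgtTGAATGTattgtacagt
Mtpn: atcatgcaataatTGAATGTacctcaaatt
Phc3: gatgcctcttgttTGAATGTatgctttgtg
Synpr: atgtagagaatgtTGAATGTaaatcagaga
Taok1: tttaaaagcatctTGAATGTataacccttc
In each, the crosslinked t stood directly before the match. On mm10, the matches lay in the last exon at chr1:9669230-9669236 (minus strand, Mybl1), chr6:35510814-35510820 (minus, Mtpn), chr3:30905685-30905691 (minus, Phc3), chr14:13614084-13614090 (plus, Synpr) and chr11:77530441-77530447 (minus, Taok1). Mybl1 encodes a MYB family transcription factor, Mtpn myotrophin, which binds actin capping protein, Phc3 a subunit of Polycomb repressive complexes, Synpr the synaptic vesicle protein synaptoporin and Taok1 a protein kinase of stress signalling. Each of these genes has 1 match in its 3′ UTR.

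The next 4 sites are from the coding sequence of C2H2 zinc finger genes, proteins built from repeated fingers that hold a zinc ion with a pair of cysteines and a pair of histidines, and they show how the site is set in the finger repeat.
2610008E11Rik: gggaaaagcctttTGAATGTaatgaatgct
Zfp788: gggggaaaaccataTGAATGTacacagtgt
Zfp260: gagagaaaccgttTGAATGTagtcagtgtg
Zfp37: agagaaaccctaTGAATGTattgaatgtgg
They lay at chr10:79067401-79067407 (minus, exon 6 of 6), chr7:41649915-41649921 (plus, exon 6 of 6), chr7:30105153-30105159 (plus, exon 3 of 3) and chr4:62191254-62191260 (minus, exon 4 of 4). The sites in 2610008E11Rik and Zfp788 had a score of 5, those in Zfp260 and Zfp37 a score of 4. In all 4 the T before GAATGT is the last base of a codon, GAA codes for glutamate and TGT for a cysteine that binds zinc. In 2610008E11Rik, Zfp260 and Zfp37 the codons before them code for the end of the linker that joins each finger to the previous one (glutamate, lysine or arginine, proline, then tyrosine, phenylalanine or histidine), and in Zfp788 the glutamate codon of this pattern is not there.

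The last sites shown are from genes of the microRNA pathway and of the retina, and differ in the place of the crosslink.
Dicer1 3′ UTR: ccaggtgatctttTGAATGTtgtagctata
Dicer1 coding: caagcccagcaaTGAATGTcctctactgag
Tnrc6a coding: ttgaactcaaactTGAATGTaaatatggat
Tnrc6b 3′ UTR: agtacttcTGAATGTgcctttgtcagccca
Ago2 3′ UTR: atttgtctcaagtTGAATGTaccggcttag
Rorb 3′ UTR: gcacacatgatttcTGAATGTttcctgtaa
Ddx3x 3′ UTR: aaacactggcactTGAATGTtgaatgtcac
Prox1 3′ UTR: tgcaacgctctttTGAATGTatggatagaa
The crosslink lay on the first T of the match in the Dicer1 coding sequence, on the T at base 5 of the match in Tnrc6b and 2 nt before the match in Rorb. In the other 5 it was the t directly before the match. Ddx3x carries a second copy of the match directly after the first, given here in lower case.

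The match lay close to the crosslinked T and mostly after it. Its start stood 1 nt after the crosslink in 157 of 385 cases (40.8%, 35.8 to 45.9), on the crosslinked base in 62 (16.1%), 2 nt after it in 45 (11.7%) and 3 nt after it in 14. In 17 cases the crosslink was the T at base 5 of the match. Of matches clear of the crosslinked base, 258 started after it and 47 ended before it (84.6% after, 80.0 to 88.5). Around all exonic crosslinks, miR-181 matches began at the nucleotide after the crosslink in 143 per 10000 windows. In the flanks, 31 nt or more upstream and 25 nt or more downstream, the density was 2.61 per 10000 windows per nt. At the edges of the chosen window the values were 3.28 just inside and 3.10 just outside on the 5′ side, and 3.10 just inside and 3.47 just outside on the 3′ side. Members near the edges were therefore about as frequent as matches in the flanks, and 72.2% of the 385 (67.4 to 76.6) started in the range between 1 nt ahead of the crosslink and 3 nt past it. At the flank density, 100 matches would be expected in the whole window, where 395 were counted, as some windows held more than 1. Which members belong to that background cannot be told.

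**Figure D1:**
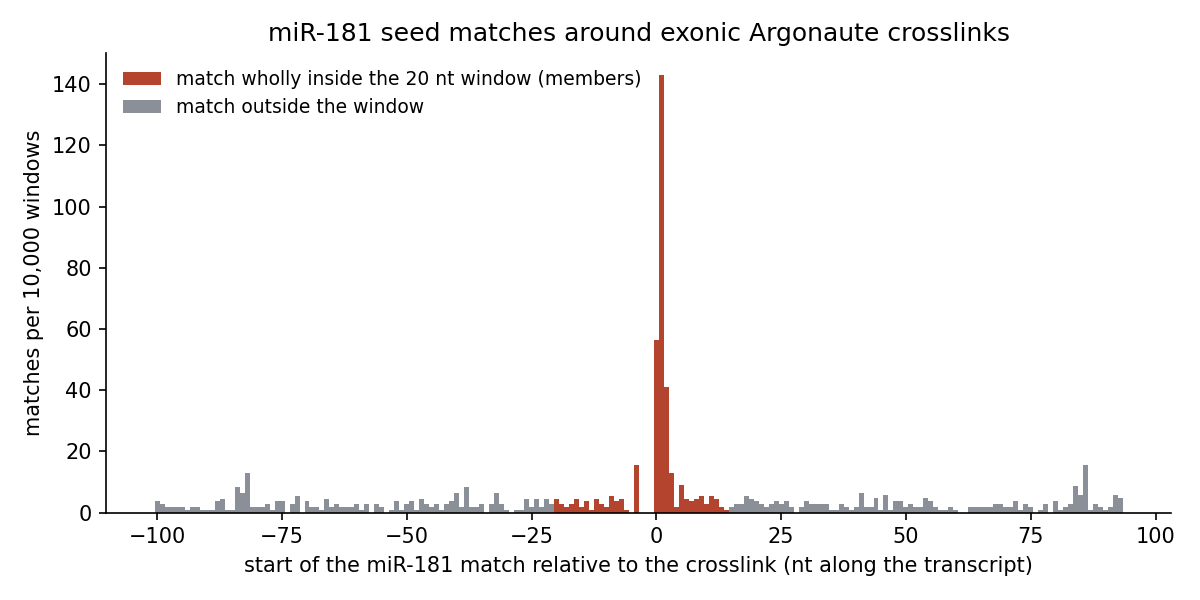
miR-181 seed matches per 10,000 windows (vertical axis) by the start of the match relative to the exonic Argonaute crosslink (horizontal axis, nt along the transcript), in red where the match lies wholly in the 20 nt window and in grey outside it. The highest bar is 1 nt after the crosslink, at 143, and the flanks average 2.61.

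Low side peaks stood at the spacing of the finger repeat. Matches starting 86 nt after the crosslink reached 15.4 per 10000 windows and those starting 82 nt before it 12.9, which is 84 nt, the length of 1 zinc finger with its linker, from the start at 2 nt after the crosslink.

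Where a T stood directly before the match, that T was usually the listed crosslink. The 385 crosslinks lay at 372 distinct matches, 190 of which had a T there, and 157 of the 190 (82.6%, 76.5 to 87.7) were crosslinked on it. All 372 were chosen for a listed crosslink within 20 nt. The shares thus tell where the listed position fell, not how often such a T is crosslinked. Only 5 of these 190 had a listed crosslink on the base 2 nt before the match and 3 on its first base. The deposited positions are named predominant crosslinks, and close neighbours were rarely both listed near these matches. Merging positions within 10 nt left 383 of the 385 members. A T that is not listed is therefore not shown to be free of crosslinks. At the other 182 matches, 59 (32.4%, 25.7 to 39.7) were crosslinked on the first base and 40 (22.0%, 16.2 to 28.7) on the base 2 nt before the match. Every match holds 3 T, and their shares differed: 16.7% of matches were crosslinked on the T at base 1, 4.57% (2.68 to 7.22) at base 5 and 0.269% (0.00681 to 1.49) at base 7. The T at the end of the match pairs with base 2 of the microRNA.

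**Figure D2:**
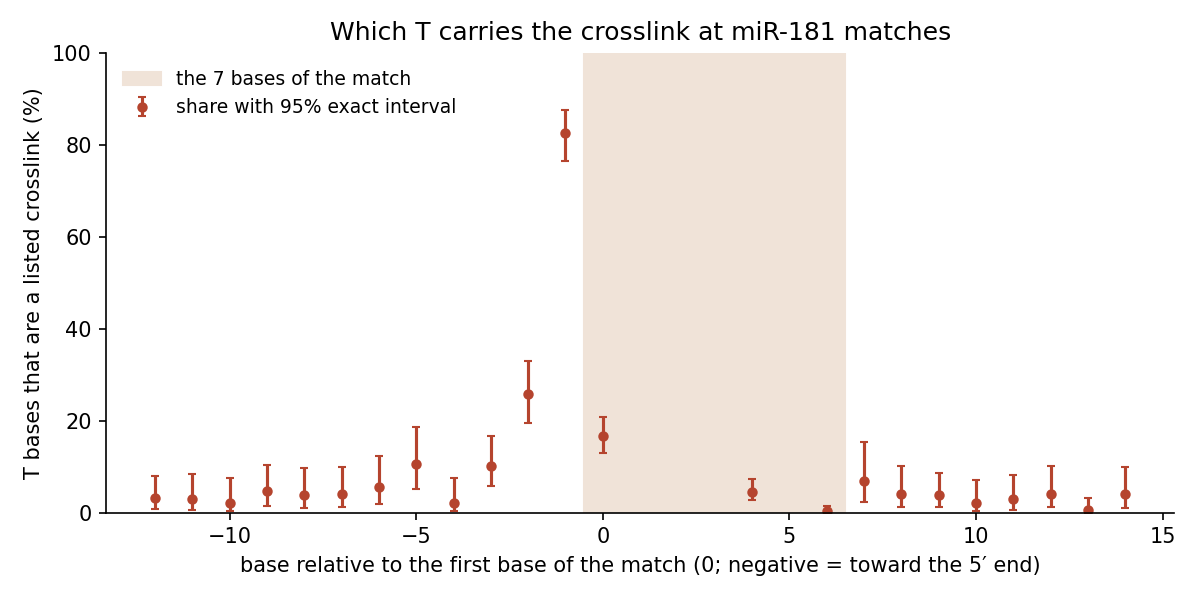
Share of T bases that are a listed crosslink (vertical axis, percent, with exact 95% intervals) at each base relative to the first base of the 372 miR-181 matches (horizontal axis, nt); the shaded band is the match. The T directly before the match stands apart at 82.6%, the next highest being 25.7% at 2 nt before it and 16.7% on its first base. Each match was chosen for a listed crosslink within 20 nt.

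A T before the match was more frequent at the 385 members than at matches farther off, in the flanks of a crosslink. It preceded 50.9% (45.8 to 56.0) of the members, and 23.7% (19.2 to 28.6) of 338 miR-181 matches farther off. The latter started 31 nt or more before a crosslink or 25 nt or more after it. A match farther off from a given crosslink can itself lie at another listed crosslink. In 2610008E11Rik, for example, the matches at nt 1074 and 1158 of the coding sequence were both crosslinked. The members and the matches farther off can therefore overlap. In 3′ UTRs the shares with a T before the match were 57.7% (51.2 to 63.9) at crosslinks and 29.9% (23.7 to 36.7) farther off. In coding sequence they were 39.6% at crosslinks and 11.7% farther off. A crosslink can be listed only on a T, and sites without one near their 5′ end cannot be listed there. The 8mer share was 41.9% (35.7 to 48.3) at 3′ UTR members and 41.7% (34.8 to 48.8) at 3′ UTR matches farther off, so the A after the match was about equally frequent. In coding sequence it was 67.6% (58.0 to 76.1) at members and 49.5% (39.5 to 59.5) farther off. Coding sequence members in zinc finger genes had 87.7% (76.3 to 94.9) and those in other genes 46.3% (32.6 to 60.4). The matches farther off were not split in this way.

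Of the 385 crosslinks, 234 were found in 2 libraries, 87 in 3, 45 in 4 and 19 in all 5. The share found in 3 or more was 39.2% (151, 34.3 to 44.3), against 29.3% (28.4 to 30.1) of the 10604 other exonic crosslinks, where 29.6% of all exonic crosslinks reached that score. In 3′ UTRs it was 44.0% (37.7 to 50.4) for miR-181 crosslinks and 32.5% (31.4 to 33.6) for others, and in coding sequence 28.8% (20.6 to 38.2) for miR-181 crosslinks and 21.4% (19.9 to 23) for others, where the intervals overlapped. A position has to be read in several libraries to score highly, so RNA amount and binding cannot be told apart in the score. The share found in all 5 libraries was 4.94% (3 to 7.6) for miR-181 crosslinks and 4.24% (3.87 to 4.64) for others.

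**Figure D3:**
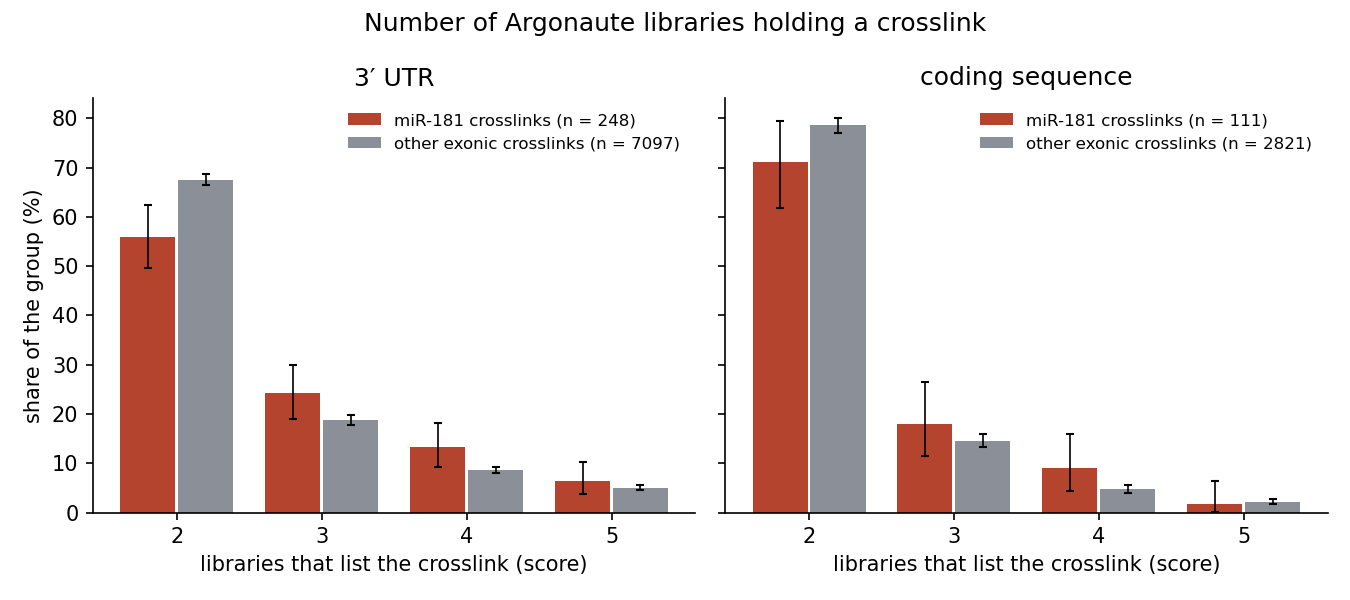
Share of crosslinks (vertical axis, percent, bars with exact 95% intervals) by the number of Argonaute libraries that list them (horizontal axis), in 3′ UTRs and in coding sequence. In 3′ UTRs, 56.0% of the 248 miR-181 crosslinks (red) were in 2 libraries, against 67.5% of the 7097 other exonic crosslinks (grey).

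The score moved with the place of the crosslink. Of crosslinks directly before the match, 47.8% (39.7 to 55.9) were in 3 or more libraries, while of those on its first base 25.8% (15.5 to 38.5) were. Where the match started more than 1 nt ahead of the crosslink or more than 3 nt past it, the share was 32.7% (24.0 to 42.5). These 3 groups also differed in site class, with 73.9%, 56.5% and 75.7% in 3′ UTRs, in that order. The score was not split by place and class together. Of the 19 crosslinks in 5 libraries, 13 lay directly before the match (68.4%, 43.4 to 87.4), and of the 234 in 2 libraries 82 did (35%, 28.9 to 41.5). The 8mers had 42.6% (35.5 to 49.8) in 3 or more libraries and the other 7mer-m8 sites 35.8% (29.0 to 43.0), with overlapping intervals.

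By site class, 248 of the 385 crosslinks lay in 3′ UTRs (64.4%, 59.4 to 69.2), 111 in coding sequence (28.8%, 24.4 to 33.6) and 26 in noncoding exons (6.75%). The other exonic crosslinks had 66.9%, 26.6% and 5.43% in these classes. Without the genes taken here by pattern as C2H2 zinc finger genes, 74.4% of the miR-181 crosslinks lay in 3′ UTRs and 17.3% in coding sequence. The shares of the other exonic crosslinks were not recomputed without these genes. None of the miR-181 crosslinks lay in a 5′ UTR, which allows a share of up to 0.954%, against 1.04% of the others. Within 3′ UTRs, the median distance from the stop codon was 1130 nt for miR-181 crosslinks and 958 nt for others, in 3′ UTRs with a median length of 2940 nt for miR-181 and 2620 nt for others. The first 500 nt held 24.2% (19 to 30) of the miR-181 crosslinks and 31.7% (30.6 to 32.8) of the others. Median A and T content of the 3′ UTR windows was 63.6% outside the match and 62.5% in other windows.

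Of the 19 crosslinks in all 5 libraries, 16 lay in 3′ UTRs, 2 in coding sequence and 1 in a noncoding RNA. Besides the 5 genes already shown, the 3′ UTR sites were in Brd1, Chd7, Chd9, Ddx3x, Dicer1, Gnaq, Gskip, Prtg, Rorb, Slc38a2 and Wasl. None of these 11 sites was an 8mer. Gnaq encodes a G protein alpha subunit, Gskip an interactor of the kinase GSK3, Prtg a cell surface protein of the immunoglobulin superfamily, Slc38a2 an amino acid transporter and Wasl the actin regulator N-WASP. Their crosslinks lay directly before the match in Brd1, Chd7, Ddx3x, Dicer1, Gnaq and Prtg, on its first base in Chd9 and Wasl, 5 nt before it in Slc38a2 and beyond its end in Gskip and Rorb. The windows of Gskip, Slc38a2 and Chd7 also held a match of another family, miR-30, miR-26, and miR-23 with miR-137. The noncoding site was in Malat1, a long nuclear RNA with 147 exonic crosslinks in all, 2 of them at miR-181 matches with scores of 5 and 3.

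Some genes had several crosslinks. In Rorb, the nuclear receptor that photoreceptor precursors need, 2 of 42 exonic crosslinks flanked a single match, 2 nt before its start with a score of 4 and beyond its end with a score of 5. Ddx3x, an RNA helicase of the X chromosome, had a crosslink with a score of 5 at the tandem match and another with a score of 4 at a separate site. Crebrf, a regulator of the CREB3 transcription factor, had scores of 3 and 2 at its 2 sites, both 8mers. Phc3 had a second crosslink, score 2, beyond the end of the match shown.

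The coding sequence sites lay in large part in C2H2 zinc finger genes. Of the 111 coding sequence members, 57 (51.4%, 41.7 to 61.0) lay in such genes, taken here as those with 3 or more C2H2 patterns in the coding sequence, against 143 of 2821 other coding sequence crosslinks (5.07%, 4.29 to 5.94). Seen from the genes, 57 of 200 coding sequence crosslinks in zinc finger genes held a miR-181 match (28.5%, 22.4 to 35.3), while 54 of 2732 in other genes did (1.98%, 1.49 to 2.57). Among 26 other families searched, to which miR-124 does not belong since it was not analysed here, the next most frequent in zinc finger coding sequence were let-7 and miR-23 with 8 each and miR-9 with 7. Of the 57, 20 were in 3 or more libraries (35.1%, 22.9 to 48.9), against 12 of the 54 in other coding sequences (22.2%, 12 to 35.6). The 57 lay in 38 of the 102 zinc finger genes with a coding sequence crosslink. Those 38 genes held 257 matches, a median of 6 and at most 16 a gene, or 3.40 per kb of coding sequence. The other 64 held 0.334 per kb, all 648 zinc finger genes of the annotation 1.28 and all other coding genes 0.0754. The 38 were taken for a crosslink at such a match and the 64 for having none. The difference between these 2 groups is therefore not independent of that choice.

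The matches were spaced as the fingers are. In all zinc finger coding sequences, 800 of 1312 neighbouring matches (61.0%) were 84 nt apart and 80.8% were apart by 84 nt or a multiple of it. In 56 of the 57 crosslinked sites the match began at the third base of a codon, so that it read as glutamate and cysteine. The cysteine was the first of the finger's pair in 48 of these 56 (85.7%, 73.8 to 93.6) and the second in 4. Among all 257 matches of the 38 genes, 174 (67.7%) lay at the first cysteine, of which 47 were crosslinked (27%, 20.6 to 34.3), and 69 at the second, of which 4 were (5.80%, 1.60 to 14.2). The site types differ along with the place. Over all zinc finger genes, 89.1% of matches at the first cysteine were 8mers and 4.15% of those at the second. In the 38 genes, 49 of 168 8mers were crosslinked (29.2%, 22.4 to 36.7) and 7 of 89 other matches (7.87%, 3.22 to 15.5). The codon that holds the first base of the match differs too. It was mostly TAT at the first cysteine, and mostly AGT or AAT, without a T ahead of the match, at the second. As each of these genes was taken for at least 1 crosslink, only the comparison within them can be read. Since only a T can be listed, place, site type and the T bases at hand cannot be told apart in it.

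The crosslinked T differed with the codon that holds the first base of the match. That codon was TAT, for tyrosine, at 41 of the 56 sites and TTT, for phenylalanine, at 11. At TAT sites 26 of 41 crosslinks (63.4%, 46.9 to 77.9) were on the first T of the codon, 2 nt before the match, 13 were on its last T, which begins the match, and none was on the middle base, an A. At TTT sites 10 of 11 were on the middle T, directly before the match. In zinc finger coding sequence, 47.4% (34.0 to 61.0) of matches began 2 nt after the crosslink, against 1.85% (0.0469 to 9.89) in the coding sequence of other genes and 3.63% (1.67 to 6.78) in 3′ UTRs. All 41 zinc finger matches clear of the crosslink lay after it.

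**Figure D4:**
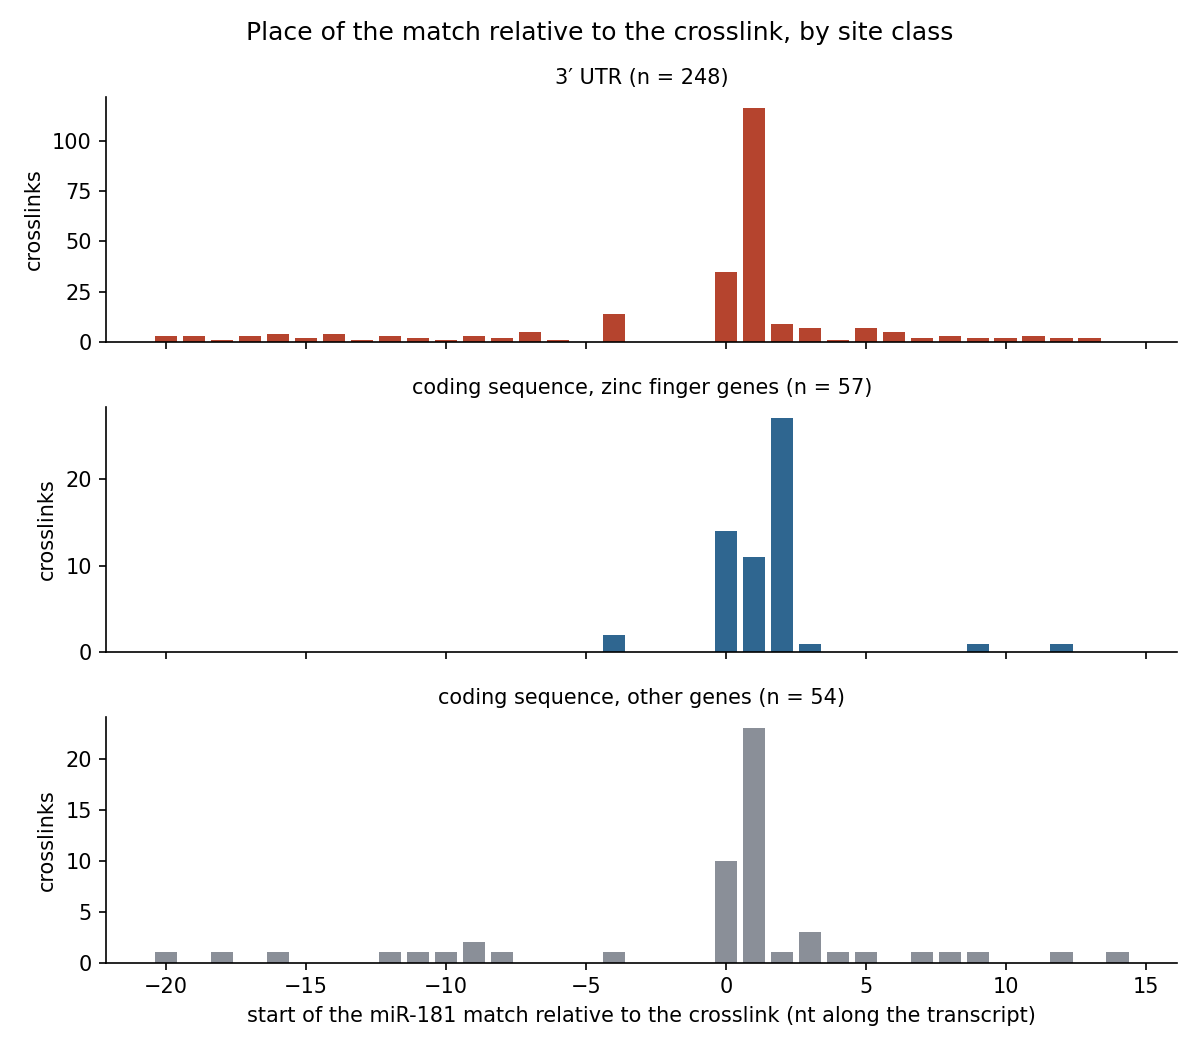
Number of miR-181 crosslinks (vertical axes) by the start of the match relative to the crosslink (horizontal axis, nt), for 248 in 3′ UTRs, 57 in zinc finger coding sequence and 54 in other coding sequence. The tallest bar is at 1 nt in 3′ UTRs (116) and in other coding sequence (23), and at 2 nt in zinc finger coding sequence (27).

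The gene with the most miR-181 crosslinks was 2610008E11Rik, whose protein has 14 C2H2 patterns. Of its 14 exonic crosslinks, 7 were at miR-181 matches, on 7 of its 10 coding sequence matches, with scores of 5, 4, 3, 3, 2, 2 and 2. Zfp37 followed with 5 of 8 exonic crosslinks, on 5 of 12 matches, and scores of 4, 3, 3, 3 and 2. In Zfp37, all 5 were 8mers at the first cysteine of a finger. The gene 2010315B03Rik had 3 crosslinks on 9 matches, the highest with a score of 4. Zfp26, Zfp260, Zfp60, Zfp68, Zfp930, Zfp938 and Gm49359 had 2 each. In Zfp788 1 of 7 matches was crosslinked, in all 5 libraries, and in Zfp157 the only crosslinked match had a score of 4.

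**Figure D5:**
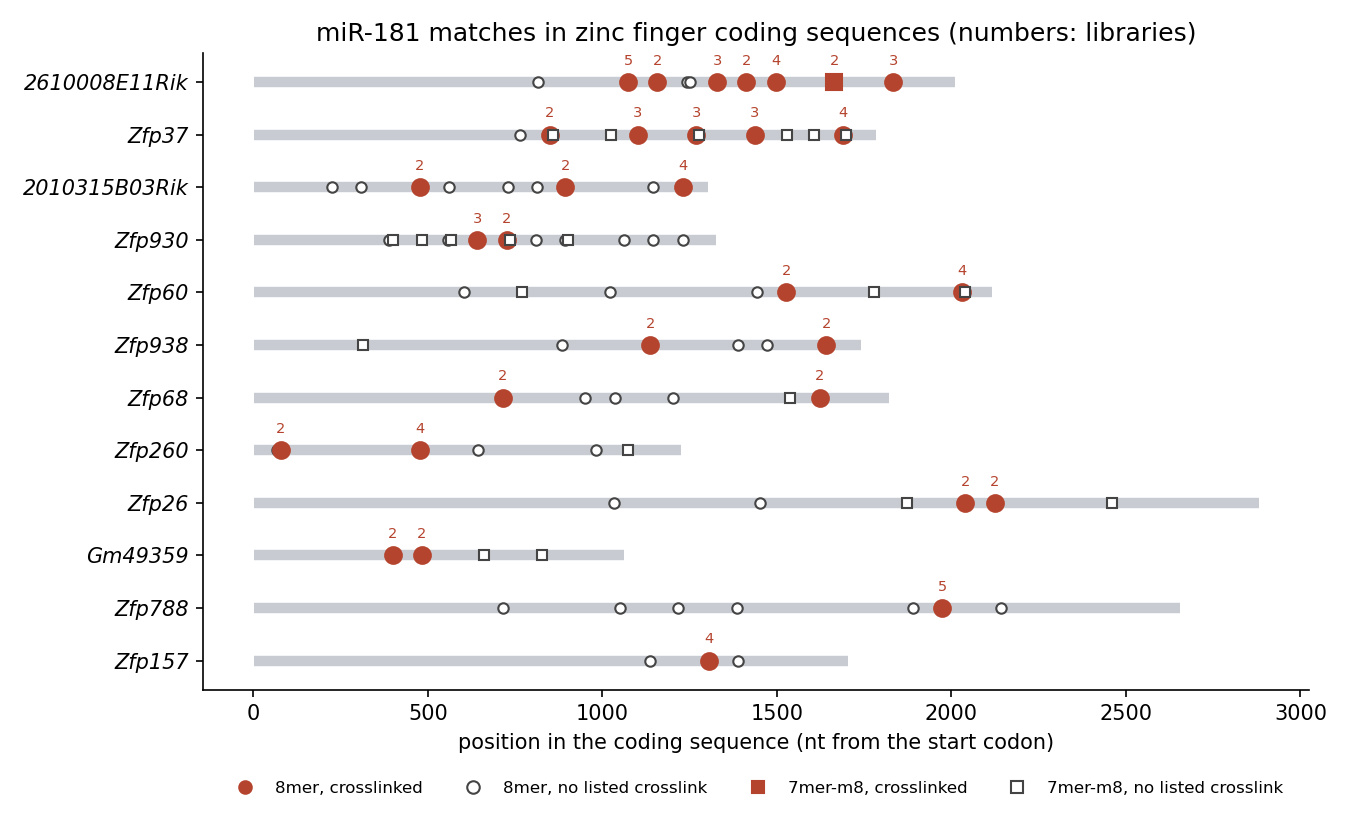
Coding sequences of 12 zinc finger genes (grey bars, horizontal axis in nt from the start codon) with every miR-181 match, circles for 8mers and squares for other 7mer-m8 sites. Filled red marks are crosslinked matches with the number of libraries above them, 7 of 10 in 2610008E11Rik and 5 of 12 in Zfp37, and open marks have no listed crosslink.

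Zinc finger genes of a cluster are near copies of each other, which limits these counts. At 14 of the 57 sites (24.6%, 14.1 to 37.8) the 35 nt around the match also stood in another gene, against 25 of all 385, so the gene these reads came from is uncertain. In 2010315B03Rik 1 of the 3 sites was of this kind, in Gm49359 both were, and in 2610008E11Rik and Zfp37 none was. Sites of the same form were also classed outside coding sequence. Linker codons stood before 49 members in 34 genes, 39 in zinc finger coding sequence, 6 in noncoding exons and 4 classed as 3′ UTR. All 49 began 0 to 2 nt after the crosslink. As 3′ UTR took precedence, a site classed there can be coding in another transcript. With coding sequence given precedence, 62 of 117 coding sequence members lay in zinc finger genes. The noncoding genes Gm10033 and Gm37494 had 3 miR-181 crosslinks each, and 2 of the 3 in Gm10033 stood in 35 nt shared with other genes.

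Genes were then read by lists of pathways and cell types, drawn up with results of these data known. By crosslinks, the interval of each of the 12 lists included the 3.5% of all exonic crosslinks, and shares of genes are higher where a list's genes hold many crosslinks. Of 17 genes of the microRNA pathway with an exonic crosslink, 7 had a miR-181 crosslink (41.2%, 18.4 to 67.1), beside 7.69% of all genes. Of their 142 exonic crosslinks, 9 were at miR-181 matches (6.34%, 2.94 to 11.7), beside 3.5% of all. Dicer1, the nuclease that cuts microRNA precursors, had a site in the 3′ UTR at chr12:104689810-104689816, 1776 nt after the stop codon, with a score of 5, and another in exon 21 of 27 at chr12:104702747-104702753 with a score of 3. Neither was an 8mer. Tnrc6a and Tnrc6b encode GW182 proteins, which link Argonaute to deadenylation, and had scores of 4, in coding exon 17 of 24 at chr7:123184171-123184177 and in the 3′ UTR at chr15:80936734-80936740. Ago2, an Argonaute itself, had an 8mer with a score of 3 at chr15:73101796-73101802. The deadenylase genes Cnot1, the scaffold of the CCR4-NOT complex, and Cnot6l, a catalytic subunit, had scores of 3 and 2 in the coding sequence and of 3 in the 3′ UTR.

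Chromatin regulators had miR-181 crosslinks in 9 of 46 genes (19.6%, 9.36 to 33.9), beside 7.69% of all genes. Of their 199 exonic crosslinks 9 were at miR-181 matches (4.52%, 2.09 to 8.41), beside 3.5% of all. Chd7 and Chd9, chromodomain helicases, had 3′ UTR scores of 5. Kmt2a, a histone H3 lysine methyltransferase, had an 8mer with a score of 4. Eed, a subunit of the Polycomb complex that methylates histone H3, and Smarca5, the ISWI ATPase, had scores of 3 with crosslinks away from the start of the match. Among other 8mers crosslinked in 4 libraries directly before the match were 3 genes of splicing, Ptbp2 (coding exon 8 of 14), Srsf7 and Mbnl2. The others were Epc2, Nek7, Pnisr, Rnf227, Sin3b and the noncoding Gm38393. Ptbp2 is the neuronal polypyrimidine tract binding protein, Srsf7 an SR protein, Mbnl2 a muscleblind protein, Nek7 a NIMA-related kinase, and Sin3b a scaffold of histone deacetylase complexes.

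In signalling lists, the intervals included the share of all genes. The MAP kinase pathway had 4 of 26 genes (15.4%, 4.36 to 34.9): Spred1 and Spry4, inhibitors of Ras signalling, with scores of 3, and Mapk8, the kinase JNK1, and Rps6ka3, the kinase RSK2, with scores of 2. Among TGF-beta and BMP genes, 2 of 18 had one, the receptors Acvr2b and Bmpr2 with scores of 2. Axon guidance had 2 of 21, the receptors Robo2 (scores 3 and 2 on a single match) and Neo1 (score 2). Of 14 apoptosis and mitochondrial genes with an exonic crosslink, none had a miR-181 crosslink, which allows a share of up to 23.2%.

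Retinal cell type genes gave single sites, and the interval of each list's share of genes included the 7.69% of all genes. Of 17 amacrine and horizontal cell regulators, 3 had one (17.6%, 3.8 to 43.4), with 3 of their 129 exonic crosslinks (2.33%, 0.482 to 6.65): Prox1, the homeobox factor of horizontal and amacrine cells, with a score of 2, Lhx9, a LIM homeobox factor, with 3, and Onecut2, a horizontal cell factor, with 3. The Prox1 8mer lay 17 nt after the stop codon at chr1:190123196-190123202, in a 3′ UTR with 4 miR-181 matches, and its window also held a 7mer of miR-216b. Prox1 was also the only 1 of 14 listed miR-181 targets from earlier work, with an exonic crosslink of any kind, that had a miR-181 crosslink here. Of 13 ganglion cell genes 2 had one (15.4%, 1.92 to 45.4), Elavl4, a neuronal RNA-binding protein, with a score of 3 and Sox11 with 2. Of 20 progenitor and Müller glia genes 2 had one (10%, 1.23 to 31.7), Id2, an inhibitor of bHLH factors, and Zfp36l1, which binds AU-rich elements, with scores of 2. Rorb was the only 1 of 9 photoreceptor and bipolar cell genes (11.1%, 0.281 to 48.2). Pdgfra, which marks retinal astrocytes, was 1 of 2 genes of other ocular cell types with an exonic crosslink and had a score of 2. The part of astrocytes in these crosslinks was not tested.

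Other seeds shared some windows. Of the 385 windows, 84 (21.8%, 17.8 to 26.3) held a 7mer-m8 match of at least 1 of the 26 other families, against 31.5% (30.6 to 32.4) of other exonic windows. miR-23 accounted for 36, of which 33 overlapped the miR-181 match in sequence, since its match AATGTGA begins inside TGAATGT. Of the 33, 7 (21.2%, 8.98 to 38.9) were in 3 or more libraries. miR-26 shared 10 windows. Deposited miR-216 sites, the subject of the study, were linked to 12 members in 11 genes. The highest score was 5, in Synpr and Phc3. Of the other genes named by the rule below, Mbnl2 had 4, and Ccdc50, Clock, Dlgap2 and Dus2 had 2. The rest of the 11 genes are not listed here. Which of the microRNAs held Argonaute at a shared window cannot be told apart.

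The same values were taken for the 26 other families, of which miR-17/20/93 (398 crosslinks), miR-19 (354) and miR-130 (346) are the nearest in number. A T stood before the match in 50.9% of the 385 miR-181 members, against 72.1% for miR-17/20/93, 42.9% for miR-19 and 57.5% for miR-130, and 14 of the 26 families had a higher share. Matches starting directly after the crosslink made up 40.8% for miR-181, 63.1% for miR-17/20/93, 23.7% for miR-19 and 30.6% for miR-130, and 12 of 26 families were higher. The share in 3 or more libraries was 39.2% for miR-181, 43.5% for miR-17/20/93, 43.8% for miR-19 and 39.9% for miR-130, and 10 of 26 families were higher. By these measures miR-181 lay inside the range of the other families. Zinc finger genes held 51.4% of the miR-181 coding sequence members, and none of the 26 families had a higher share, their median being 4.9%. The nearest were miR-23 with 30.8% of 26 coding sequence members, of which 7 of the 8 in zinc finger genes were miR-181 members too, miR-125 with 18.8% of 16, miR-27 with 15.4% of 26 and miR-25/92 with 14.3% of 21. These differences between families were described and not tested.

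The microRNAs themselves were also crosslinked. Of the 5 miR-181 hairpin loci taken from RefSeq here, which may not be the whole family, 4 held a position of the table. The highest score was 5, at base 9 of miR-181b-5p (chr2:38853853, plus strand), a U just after the seed. Base 24 of the same microRNA had a score of 2 at its other locus (chr1:137966673), and since the mature sequence is alike in both, the locus is uncertain. Base 12 of miR-181a-1-3p, from the other arm of its hairpin, had a score of 3 (chr1:137966519), and the position in Mir181d, score 2, lay outside the annotated mature sequences.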

How the data were processed

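Per the labels' protocols, micrococcal nuclease shortened the RNA, gel pieces at 100 to 150 kDa were kept, and libraries were made from cDNA of 80 to 150 nt. The mm10 build and the tools CASAVA 1.8.2, bedtools and STAR come from the submitters' processing notes. Their settings are not given in the sources used. Each score in the authors' crosslink table counts the samples with that crosslink, per the file headers, and the deposited values run from 2 to 5, so positions of 1 library are not in it. The authors' miR-216 table was used only to link its sites to members within 20 nt, and its score was not used. The columns pool the Argonaute libraries, and no column per sample was used. Depth per library is unknown.

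Positions were placed on GENCODE M21 transcripts of the same strand, with the class taken from protein-coding transcripts where any covered them, with 3′ UTR given precedence over coding sequence, then 5′ UTR, then noncoding exon. All 10989 exonic positions lay on T, which checks build and strand. Where several matches or transcripts fitted, the nearest match was described. C2H2 genes were those with 3 or more copies of the cysteine and histidine pattern, with 12 residues between the pairs, in the translated coding sequence. Shares were set beside those of other exonic crosslinks with exact intervals (SciPy 1.17.1, Python 3.11.15, figures with matplotlib 3.10.9), and no p-value was computed, since the tables hold no values per library. Finding and mapping of matches were tested on simulated transcripts.

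Members and lists were chosen with earlier results of these data known. Genes were named where a miR-181 crosslink was in 5 libraries, where a gene was among the 10 with the most distinct matches or the 12 leading zinc finger genes, where it stood in a gene list, with at most 6 a list, where a miR-216 site was linked (up to 5), and where an 8mer directly after the crosslink had a score of 4 (up to 10), which gave 71 genes, some of which are not reported here. The linker codons, the codon before the match and the crosslinked share within 38 zinc finger genes were chosen after the values were seen.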

Additional observations from a re-analysis of the deposited data

How the results depend on the processing

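In all, 8 values were recomputed under 11 other settings, 3 of them chosen after seeing the data, and 65 of 85 results stayed within the interval of the reported value, or within 1.5 times of the count. With 10 nt either side, 93.2% of matches lay after the crosslink and 88.5% started between 1 nt ahead of it and 3 nt past it; with 30 nt that second share was 62.8%. In 3 or more libraries 151 crosslinks were left, with 72.2% in 3′ UTRs, 21.2% in coding sequence, 90.0% after the crosslink, 76.8% starting in that range, and 62.5% of coding sequence members in zinc finger genes. Without windows that held another family, the 8mer share was 56.5% and the share starting in that range 77.1%. Members whose match overlaps the miR-23 match AATGTGA have a G after it and so cannot be 8mers. Without zinc finger genes, 74.4% lay in 3′ UTRs, 17.3% in coding sequence and 44.6% were 8mers. With 8mers only, 195 crosslinks were left, with 53.3% in 3′ UTRs, 38.5% in coding sequence, 88.9% after the crosslink, 80.0% starting in that range and 66.7% of coding sequence members in zinc finger genes. These settings count fewer or more positions by construction; why the shares move beyond that was not tested. In 3 cases a share has no value where the setting fixes it: score under 3 or more libraries, 8mers under 8mers only, and zinc finger genes when these are left out. Merging close positions, another class order, 1 transcript a gene, transcripts subject to decay and leaving out windows shared between genes moved none of the 8 values past these bounds. No paired analysis was possible because the tables pool the libraries and hold no value per library, and leaving out a library was not possible either. Depth is unknown, so a match without a listed crosslink is not shown to be unbound.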
